A study of Homo sapiens with 30 samples.

Results

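BRD8 depletion was compared between HCT116 and SW480 cells, both human colorectal cancer lines, in 18 of the 30 RNA-seq libraries of the series, 9 from each line. HCT116 cells had 3 libraries with siBRD8-6, 3 with siBRD8-36 and 3 with a control siRNA (siControl), and SW480 cells had the same 3 groups of 3. All cells received 10 nM siRNA by lipid transfection and were harvested 48 h later. HCT116 cells grew in McCoy's 5A medium and SW480 cells in Leibovitz's L-15 medium, so that line and medium cannot be told apart, and each line stands only for itself. The libraries of TIP60 depletion entered only 1 alternative fit. Nothing in the labels tells whether the 3 libraries of a group came from separate cultures, and the p-values therefore rest on a spread that could be technical.

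BRD8 is a bromodomain protein and a subunit of the TIP60 complex, which acetylates histones in chromatin, exchanges histone variants and acts as a coactivator of several transcription factors. The catalytic subunit TIP60 is the product of KAT5. As background, HCT116 cells carry an activating mutation of beta-catenin and an intact p53 gene, whereas SW480 cells carry a truncated APC and a mutant p53, so that WNT signalling is active in both lines by different lesions and p53 signalling is intact in HCT116 cells.

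The response of a gene in a line is its log2 change with the BRD8 siRNAs against siControl, taken as the mean of both siRNAs unless a single siRNA is named. The difference between lines is the response in HCT116 minus the response in SW480, with its standard error (SE) from 1 fit of the 18 libraries. A difference was called only where both siRNAs gave it with 1 sign and the weaker of the 2 tests stayed under 0.05 after adjustment over all genes, and its p is the adjusted p printed here. The same rule defined a change within a line. Levels are CPM, counts per M counts of the library after scaling.

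Total counts lay between 13.4 and 18.6 M in the HCT116 libraries (median 16.7) and between 7.07 and 11.7 M in the SW480 libraries (median 8.76), with the SW480 siControl libraries lowest at 7.07 to 7.69 M. Colonic epithelial markers summed to 3340 to 3940 CPM in HCT116 siControl, 5680 to 6020 with siBRD8-6 and 7230 to 7810 with siBRD8-36. In SW480 they summed to 4130 to 4190 CPM with siControl, and to 5120 to 5670 and 5450 to 5750 with the same siRNAs. The keratins KRT8, KRT18 and KRT19 made up most of these sums. CDX1 was at 0 with siControl in both lines, and VIL1 had at most 0.291 CPM in HCT116 group means. Of the 9 markers, 7 were expressed highly enough to be tested. The leukocyte and endothelial lists summed to at most 16 and 2.54 CPM, with CDH5 at 0 in all groups and PTPRC at 0 in 5 of 6 groups. In SW480 the leukocyte sum was 5.43 to 6.73 CPM with siBRD8-36, against 0.845 to 2.08 CPM with siControl. Of its 3 tested members, 1 was called higher in SW480. CD68 had group means of 4.27 CPM with siBRD8-36 and 0.148 CPM with siControl there. LYZ had 2.61 and 0.209 CPM in the same groups of HCT116. The share of counts from ribosomal protein genes was 9.81% in HCT116 siControl replicate 2, against 7.44% and 7.12% in the other HCT116 siControl libraries. In SW480 that share was 7.63 to 9.49% with the BRD8 siRNAs and 10.4 to 10.8% with siControl.

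The BRD8 level fell in every depleted library. BRD8 (ENSG00000112983, chromosome 5, 138139766 to 138178986, minus strand of GRCh38) stood at 8.2, 9.25 and 8.86 CPM with siBRD8-6 and at 5.66, 6.03 and 6.74 CPM with siBRD8-36 in HCT116 cells, against 44.6, 37.7 and 41.2 CPM with siControl. In SW480 BRD8 stood at 12.3, 13.9 and 14.1 CPM with siBRD8-6 and at 12.2, 11.5 and 11.1 CPM with siBRD8-36, against 59.4, 51.4 and 53.1 CPM with siControl. No depleted library overlapped the control libraries of its line. The remaining level was 21.3% (siBRD8-6) and 14.9% (siBRD8-36) of control in HCT116, and 24.5% and 21.2% in SW480 with the same siRNAs. The response was −2.49 ± 0.076 (SE) in HCT116 and −2.13 ± 0.08 in SW480. The difference between lines was −0.36 ± 0.11 and was not called by the rule for both siRNAs (adjusted p = 0.389), with −0.21 for siBRD8-6 and −0.51 for siBRD8-36. With the mean of both siRNAs as the rule, or with siBRD8-36 alone, it was called (adjusted p = 0.0171 and 0.00718). The share of control left by siBRD8-36 was thus lower in HCT116 (14.9%) than in SW480 (21.2%). KAT5 stood at 113% and 84.7% of control with siBRD8-6 and siBRD8-36 in HCT116 and at 105% and 75.3% in SW480, with a difference between lines that was not called (adjusted p = 0.638).

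Of 16861 genes tested, 2081 (12.3%) responded differently in the 2 lines. Within HCT116, 3827 genes (22.7%) were called, 2226 higher (13.2%) and 1601 lower (9.5%). Within SW480, 3785 genes (22.4%) were called, 1895 higher (11.2%) and 1890 lower (11.2%). In 1384 cases both lines called a gene in 1 direction, which was 36.2% of the HCT116 calls and 36.6% of the SW480 calls. In 134 cases (0.795% of the genes tested) the lines called it in opposite directions, and all 134 also passed the test of the difference. Among the genes that differed, 676 were called within HCT116 but not within SW480, 696 within SW480 but not within HCT116 and 430 within neither line. A further 78 moved in 1 direction in both lines with the larger response in HCT116, and 67 with the larger response in SW480. Moving alike was defined by a call in both lines in 1 direction and a 95% interval of the difference inside 1.5-fold either way, and 966 genes (5.73%) met it, 506 higher and 460 lower. Of these, 23 also passed the test of a difference, of a size under that margin. Across the 16861 genes the responses of the lines had a Pearson r of 0.28 and a Spearman rho of 0.39. These describe genes of the same libraries, which are not independent replicates. Over 10110 protein-coding genes with a mean count of at least 50 in each line and no group of 3 libraries all at 0 the values were 0.56 and 0.52.

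**Figure D1:**
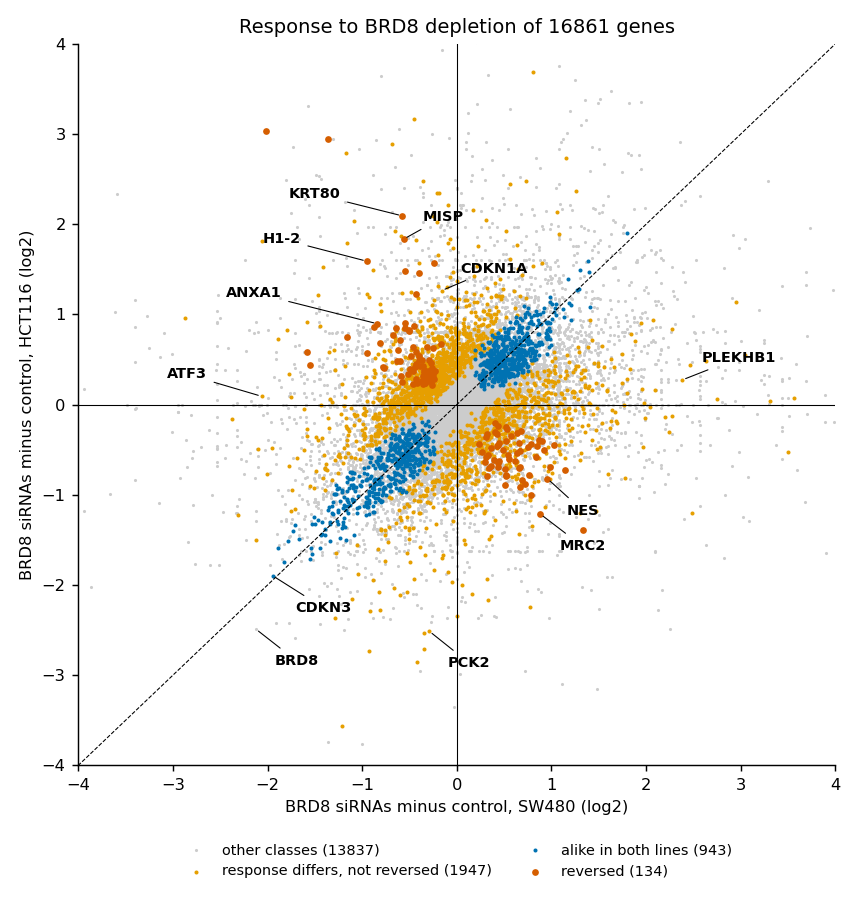
Response to BRD8 depletion (log2, mean of both siRNAs minus siControl) of 16861 genes in HCT116 (vertical axis) and SW480 (horizontal axis). Colours mark the 134 reversed genes, 943 alike genes that did not also pass the test of a difference, 1947 other genes whose response differed and the rest, the dashed line marks equal responses, and 78 genes lie beyond the axes. MISP, KRT80 and H1-2 lie in the upper left, MRC2 and NES in the lower right, and CDKN3 near the dashed line at the lower left.

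The split of the differences into positive and negative depended on how the libraries were scaled. A constant factor between the lines cancels in every response, so the scaling of depleted against control libraries within a line matters here. The response in HCT116 was the higher one for 1194 of the 2081 genes (7.08% of those tested) and the lower one for 887 (5.26%), a share of 57.4% positive. That share was 46% with DESeq2 size factors (911 and 1068 genes), 46.1% with scaling inside each line (916 and 1072), 48.7% with DESeq2 (1073 and 1132) and 49.4% with median-centred TPM (526 and 538). It was 34.2% in a fit of all 30 libraries (828 and 1591), 28.9% with no filter on low counts (607 and 1492), 13% with limma on uncentred log2(TPM + 1) (210 and 1410) and 31.7% without SW480 siControl replicate 3 (527 and 1134). Without that library but with the scaling of all 18 libraries it was 58.2% (973 and 699). The median difference of all genes was 0.02 as reported here, −0.12 with no filter, −0.10 without that library, −0.10 with all 30 libraries and −0.21 with uncentred TPM, so small differences are best read against these shifts. Of the 2081 genes, 478 were called in each of 31 alternatives, 147 with a positive and 331 with a negative difference. A gene that an alternative did not test counted there as not called. DESeq2 tested 16139 genes, and a filter of at least 1 CPM in 3 libraries of each line left 13239. The 31 include the call rules with a single siRNA alone and with the mean of both siRNAs. A gene called with both siRNAs passes the single-siRNA rules by definition, so they cannot test its call. The rule with the mean draws on the same differences, already of 1 sign, and is hardly a test either. Uncentred TPM was also among the 31, with its 210 positive and 1410 negative differences, so the split of the 478 is not free of that shift. At 2-fold or more with each siRNA there were 317 of the 2081 genes, of which 121 were positive and 196 negative.

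Among the 134 reversed genes, 75 were higher in depleted HCT116 and lower in depleted SW480 cells, and 59 went the other way. In 25 of them the response was at least 1.5-fold in each line, and 78 of the 134 were called as differing in each of the 31 alternatives. All reversed genes described with their library values here are among these 78. MISP, H1-2, ANXA1, KRT80, ARRDC3 and CCN1 rose in HCT116 and fell in SW480, whereas MRC2, NES, TNFRSF6B, LRIG1 and SLC5A3 fell in HCT116 and rose in SW480.

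MISP (ENSG00000099812, chromosome 19, 751126 to 764318, plus strand), an actin-associated protein of the mitotic spindle, had 113, 106 and 104 CPM with siBRD8-6 and 134, 135 and 132 CPM with siBRD8-36 in HCT116 cells, against 32.6, 36.9 and 31.5 CPM with siControl. In SW480 MISP had 23, 27.2 and 28 CPM with siBRD8-6 and 40.9, 39.4 and 41.2 CPM with siBRD8-36, against 48.6, 50.8 and 44.7 CPM with siControl. All depleted HCT116 libraries lay above, and all depleted SW480 libraries below, the controls of their line. Responses were 1.84 ± 0.065 and −0.56 ± 0.07, a difference of 2.40 ± 0.095 (adjusted p = 2.75e-12).

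ANXA1 (ENSG00000135046, chromosome 9, 73151757 to 73170393, plus strand) encodes annexin A1, a phospholipid-binding protein. It had 1280, 1220 and 1280 CPM with siBRD8-6 and 1050, 1070 and 1040 CPM with siBRD8-36 in HCT116, against 612, 655 and 588 CPM with siControl. In SW480 ANXA1 had 22.6, 21.8 and 20.8 CPM with siBRD8-6 and 21, 15.7 and 16.7 CPM with siBRD8-36, against 38.4, 34.3 and 32.8 CPM with siControl. The lines differed in the level of this gene before depletion, and the groups did not overlap within either line. The difference between responses was 1.74 ± 0.097 (adjusted p = 3.99e-10). ARRDC3, an arrestin-domain protein that guides receptors to degradation, showed responses of similar size in both lines and opposite sign, 0.86 ± 0.065 in HCT116 and −0.88 ± 0.066 in SW480 (difference 1.74 ± 0.093, adjusted p = 2.52e-09).

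KRT80, an epithelial type II keratin, was low in HCT116 at 9.16, 8.4 and 8.98 CPM with siBRD8-6 and 23.4, 17.5 and 19.7 CPM with siBRD8-36, against 3.39, 2.65 and 3.24 CPM with siControl. In SW480 KRT80 was high, at 207, 191 and 230 CPM with siBRD8-6 and 138, 122 and 147 CPM with siBRD8-36, against 256, 249 and 249 CPM with siControl. The depleted libraries moved toward each other between the lines without meeting, and the difference was 2.67 ± 0.14 (adjusted p = 1.08e-07). CCN1, a secreted matricellular protein, depended on the siRNA. Its response was 1.21 with siBRD8-6 and 0.27 with siBRD8-36 in HCT116, and −0.28 and −2.05 in SW480 with the same siRNAs (difference 1.91 ± 0.12, adjusted p = 2.56e-08).

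The linker histone gene H1-2 (ENSG00000187837, chromosome 6, 26055787 to 26056428, minus strand) had 26.4, 21.8 and 21.1 CPM with siBRD8-6 and 17.3, 16.8 and 18.4 CPM with siBRD8-36 in HCT116, against 5.38, 8.77 and 6.17 CPM with siControl. In SW480 H1-2 had 27.8, 24.4 and 26 CPM with siBRD8-6 and 13, 13.5 and 10.1 CPM with siBRD8-36, against 32.9, 37.9 and 32.6 CPM with siControl. Both lines showed non-overlapping groups in opposite directions. The difference was 2.54 ± 0.17 (adjusted p = 2.56e-08).

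In the opposite direction, MRC2 (ENSG00000011028, chromosome 17, 62627401 to 62693597, plus strand), an endocytic collagen receptor, had 16.8, 17.4 and 16 CPM with siBRD8-6 and 22.6, 27.2 and 23.4 CPM with siBRD8-36 in HCT116, against 45.8, 45.4 and 49.2 CPM with siControl. In SW480 MRC2 had 28, 31.9 and 29.8 CPM with siBRD8-6 and 39, 37.9 and 36 CPM with siBRD8-36, against 17.9, 18.4 and 18.3 CPM with siControl. The groups did not overlap in either line, and the siControl level was the higher one in HCT116. Responses were −1.21 ± 0.064 and 0.88 ± 0.082, a difference of −2.10 ± 0.1 (adjusted p = 9.12e-11).

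NES (ENSG00000132688, chromosome 1, 156668763 to 156677397, minus strand), the intermediate filament protein nestin, had 26.5, 25.9 and 22.4 CPM with siBRD8-6 and 20.9, 23.6 and 21.9 CPM with siBRD8-36 in HCT116, against 41.4, 42.9 and 40.4 CPM with siControl. In SW480 NES had 32.1, 37.1 and 43.2 CPM with siBRD8-6 and 45.1, 42.7 and 52.3 CPM with siBRD8-36, against 21.2, 23.2 and 20.3 CPM with siControl. Depletion thus lowered NES in HCT116 to near the SW480 control level and raised it in SW480 to near the HCT116 control level (difference −1.78 ± 0.13, adjusted p = 9.23e-08). TNFRSF6B, a secreted decoy receptor of the TNF receptor family, had 79.4 to 87.9 CPM in the 6 depleted and 148 to 203 CPM in the 3 control libraries of HCT116. In SW480 TNFRSF6B had 6.4 to 9.64 CPM in the depleted and 3.86 to 5.1 CPM in the control libraries (difference −1.79 ± 0.18, adjusted p = 1.15e-05). This gene overlaps a read-through transcript of its neighbour, so its counts are less certain. LRIG1, a negative regulator of EGF receptors, and SLC5A3, a myo-inositol transporter, had differences of −1.54 ± 0.15 (adjusted p = 2.31e-05) and −1.52 ± 0.13 (adjusted p = 2.64e-06).

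**Figure D2:**
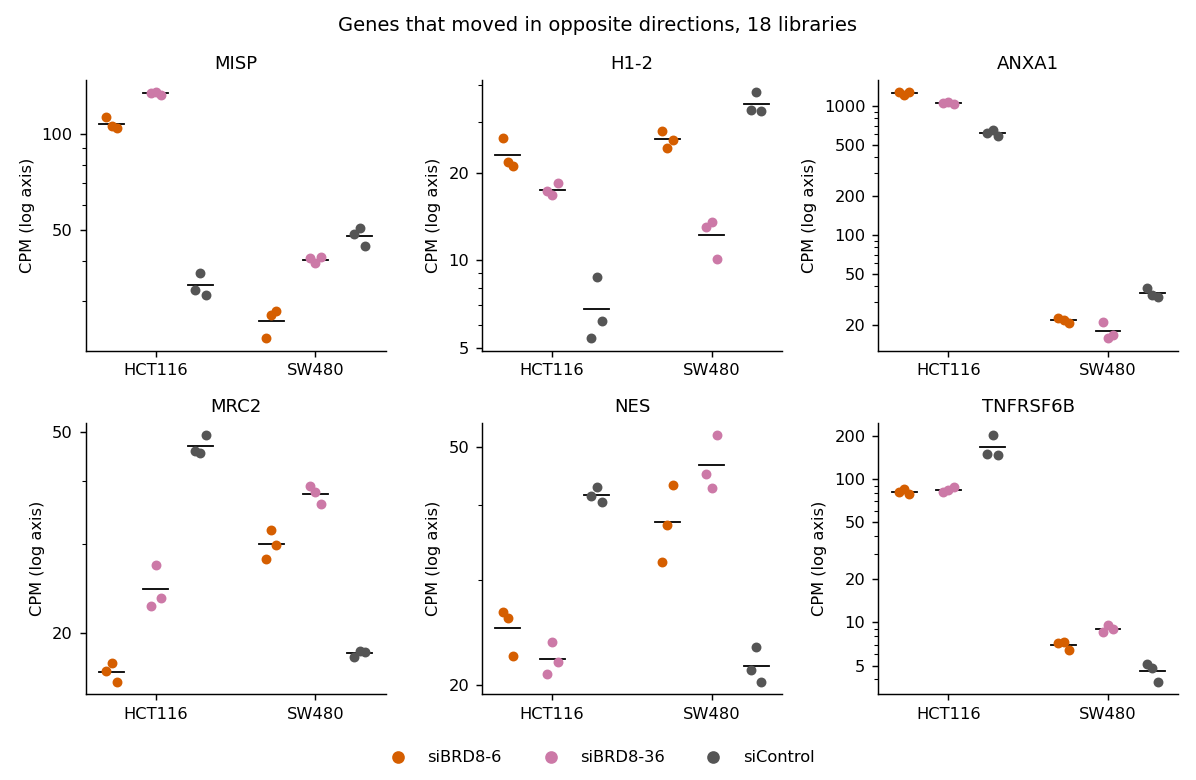
CPM (log axis) of 6 reversed genes in the 18 libraries, with siBRD8-6, siBRD8-36 and siControl from left to right in HCT116 and then SW480. Points are libraries and bars are means of 3. MISP, H1-2 and ANXA1 lie above control in depleted HCT116 and below control in depleted SW480 libraries, and MRC2, NES and TNFRSF6B the reverse.

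Many of the largest differences came from a change within 1 line. C1orf116 (ENSG00000182795, chromosome 1, 207018521 to 207032756, minus strand) had 24.1, 20.8 and 22.4 CPM with siBRD8-6 and 15.9, 16.8 and 16.2 CPM with siBRD8-36 in HCT116, against 4.52, 4.79 and 4.76 CPM with siControl. In SW480 C1orf116 had 48.5, 45.4 and 50.8 CPM with siBRD8-6 and 36.3, 35.2 and 45.6 CPM with siBRD8-36, against 52.5, 46.9 and 51.3 CPM with siControl. It rose in HCT116 (2.03 ± 0.1) without a call in SW480 (−0.21 ± 0.077, adjusted p = 0.749), and the difference was 2.24 ± 0.13 (adjusted p = 6.42e-10). NIBAN1, a stress-responsive regulator of translation, fell in both lines but further in HCT116 (−2.73 ± 0.1) than in SW480 (−0.93 ± 0.086), a difference of −1.80 ± 0.14 (adjusted p = 8.52e-07).

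PLEKHB1 (ENSG00000021300, chromosome 11, 73646178 to 73662819, plus strand), a membrane-associated pleckstrin homology domain protein, had 19.2, 17.8 and 20.9 CPM with siBRD8-6 and 41.2, 40.1 and 41.2 CPM with siBRD8-36 in HCT116, against 20.8, 27 and 22.2 CPM with siControl. In SW480 PLEKHB1 had 33.6, 30.9 and 31.2 CPM with siBRD8-6 and 33.2, 29.3 and 28.9 CPM with siBRD8-36, against 6.2, 6.48 and 5.19 CPM with siControl. The siRNAs thus gave opposite signs in HCT116 (−0.27 and 0.82) and like responses in SW480 (2.41 and 2.35), with a difference of −2.11 ± 0.15 (adjusted p = 3.69e-07). PALM, a membrane protein linked to cell shape, stood at −0.28 ± 0.092 in HCT116 and rose in SW480 by 1.48 ± 0.15 (difference −1.75 ± 0.17, adjusted p = 7.94e-06). HKDC1, a hexokinase family member, had responses of 0.49 and −0.82 to the siRNAs in HCT116 and fell in SW480 by 2.38 ± 0.12 (difference 2.22 ± 0.17, adjusted p = 1.06e-06).

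WNT9A, a WNT ligand, showed how far the siRNAs could part while both gave a difference between lines. It had 8.38, 8.28 and 8.08 CPM with siBRD8-6 and 36.1, 35.3 and 35 CPM with siBRD8-36 in HCT116, against 7.26, 8.26 and 6.72 CPM with siControl. In SW480 WNT9A had 4.09, 4 and 5.31 CPM with siBRD8-6 and 15.6, 14 and 14.3 CPM with siBRD8-36, against 24.5, 22.5 and 20.3 CPM with siControl. In HCT116 the siBRD8-36 libraries were far above control and the siBRD8-6 libraries overlapped it, and in SW480 the siBRD8-6 libraries were lowest. The difference was 2.67 ± 0.14 (adjusted p = 6.74e-10).

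The genes of known pathways were then followed as lists, each described by counts of its tested members beside the shares of all genes given above. Over all genes the median response was 0.03 in HCT116 and 0.01 in SW480.

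**Figure D3:**
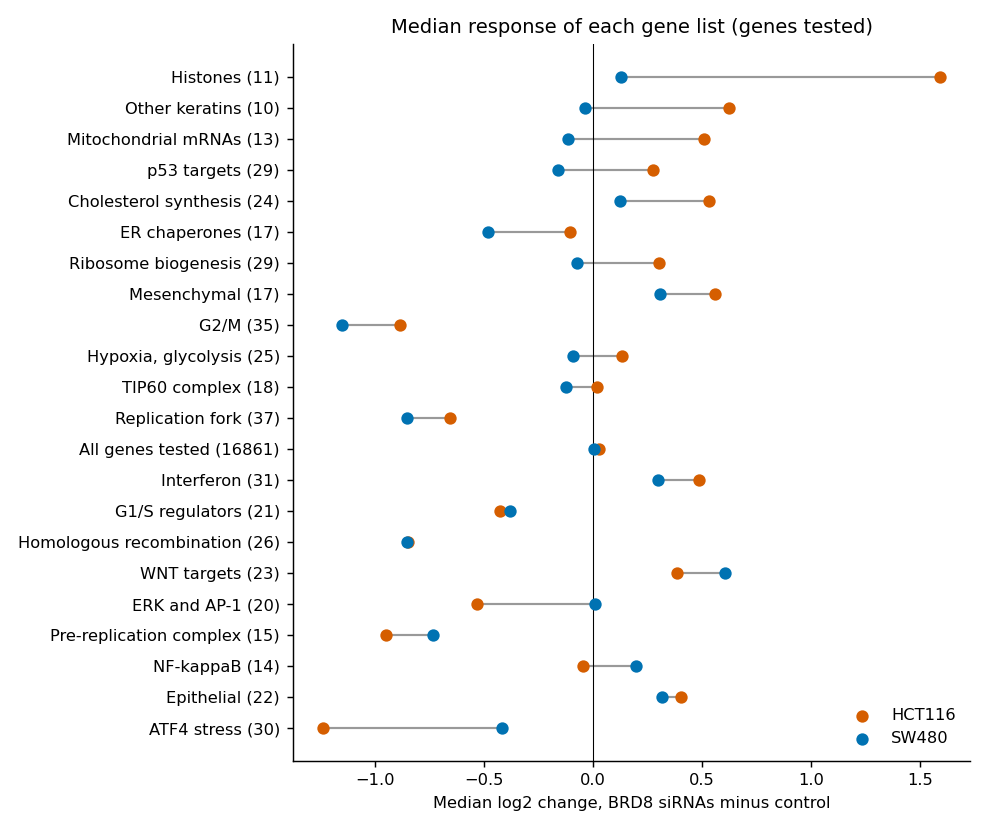
Median response (log2, mean of both siRNAs minus siControl) of the tested members of 21 gene lists and of all 16861 genes, in HCT116 (orange) and SW480 (blue), ordered by the median difference between lines. Histones stand at 1.59 and 0.13, ATF4 stress genes at −1.24 and −0.42, and G2/M genes at −0.89 and −1.15.

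Genes of the ATF4 stress response were lower in both lines and lower still in HCT116. ATF4 is a transcription factor whose translation rises under amino acid shortage and endoplasmic reticulum stress, and its targets import and make amino acids. Of 30 tested members, 18 fell in HCT116 and none rose, and 14 fell and 1 rose in SW480. A negative difference was called for 11 and a positive one for 1. The list's median response was −1.24 in HCT116 and −0.42 in SW480, and its median difference was −0.62. By siRNA the medians were −0.53 (siBRD8-6) and −1.96 (siBRD8-36) in HCT116, and −0.16 and −0.50 in SW480. ATF4 itself fell in HCT116 (−0.98 ± 0.045) and in SW480 (−0.385 ± 0.046), and its difference was −0.11 with siBRD8-6 and −1.08 with siBRD8-36, which was not called (adjusted p = 0.433).

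PCK2 (ENSG00000100889, chromosome 14, 24094053 to 24110598, plus strand), the mitochondrial phosphoenolpyruvate carboxykinase, had 62.5, 53.1 and 62.3 CPM with siBRD8-6 and 15.4, 19.6 and 18.9 CPM with siBRD8-36 in HCT116, against 174, 199 and 186 CPM with siControl. In SW480 PCK2 had 109, 116 and 124 CPM with siBRD8-6 and 91.9, 88.8 and 83.6 CPM with siBRD8-36, against 126, 122 and 124 CPM with siControl. The HCT116 groups stood well apart, and in SW480 the siBRD8-6 libraries reached up to the controls (difference −2.22 ± 0.097, adjusted p = 9.53e-10). SLC1A4, a transporter of small neutral amino acids, differed by −2.18 ± 0.12 (adjusted p = 5.65e-08). The serine synthesis genes PSAT1 (−1.55 ± 0.072) and PHGDH (−1.37 ± 0.09), the asparagine synthetase gene ASNS (−1.55 ± 0.07) and DDIT4, an inhibitor of mTORC1 (−1.38 ± 0.076), had differences of the same sign, each called. SLC1A5, a glutamine transporter, was reversed, at −0.45 in HCT116 and 0.43 in SW480 (difference −0.88 ± 0.063, adjusted p = 1.11e-05).

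CHAC1, an enzyme that degrades glutathione, had 53.7, 52.1 and 57.2 CPM with siBRD8-6 and 4.93, 3.95 and 4.94 CPM with siBRD8-36 in HCT116, against 80.3, 81.4 and 79.9 CPM with siControl. In SW480 CHAC1 had 26.8, 22.4 and 30.3 CPM with siBRD8-6 and 26.9, 24.7 and 19.6 CPM with siBRD8-36, against 26, 26.9 and 22.1 CPM with siControl. All SW480 groups overlapped, and the HCT116 groups did not (difference −2.35 ± 0.14, adjusted p = 0.00324).

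ATF3 (ENSG00000162772, chromosome 1, 212565334 to 212620777, plus strand), a stress-induced transcription factor, was the list's member with a positive difference. It had 49.3, 48.4 and 44.4 CPM with siBRD8-6 and 40, 36.1 and 38.2 CPM with siBRD8-36 in HCT116, against 39.2, 37.3 and 43 CPM with siControl. In SW480 ATF3 had 16.4, 12.7 and 15.6 CPM with siBRD8-6 and 18, 19.8 and 18.6 CPM with siBRD8-36, against 65.8, 70.1 and 73.8 CPM with siControl. The siBRD8-36 libraries overlapped control in HCT116, and all depleted SW480 libraries lay below control (difference 2.15 ± 0.1, adjusted p = 3.99e-10). DDIT3, the stress factor CHOP, moved alike by the mean of both siRNAs, at −1.71 ± 0.073 in HCT116 and −1.55 ± 0.067 in SW480. Its differences between lines had opposite signs, 0.36 with siBRD8-6 and −0.69 with siBRD8-36, so that the single siRNAs did not show a like response.

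The promoter windows of CHAC1 and ATF3, whose differences had opposite signs, are shown because each holds 1 match to an ATF4 element. The element was searched as TGATGNAA on both strands in RefSeq promoters of GRCh38.p14, from 250 bases before to 50 bases from the start of each gene, and matches are in capitals. CHAC1 lies at chr15:40953221-40953520 on the plus strand, and ATF3, of which 1 of 2 listed starts is shown, at chr1:212565157-212565456 on the plus strand.
CHAC1: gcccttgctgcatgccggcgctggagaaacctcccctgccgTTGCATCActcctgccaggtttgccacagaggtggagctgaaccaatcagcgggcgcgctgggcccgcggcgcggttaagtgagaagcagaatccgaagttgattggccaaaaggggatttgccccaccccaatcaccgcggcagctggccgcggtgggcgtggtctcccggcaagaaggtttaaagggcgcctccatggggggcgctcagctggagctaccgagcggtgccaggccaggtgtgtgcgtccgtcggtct
ATF3: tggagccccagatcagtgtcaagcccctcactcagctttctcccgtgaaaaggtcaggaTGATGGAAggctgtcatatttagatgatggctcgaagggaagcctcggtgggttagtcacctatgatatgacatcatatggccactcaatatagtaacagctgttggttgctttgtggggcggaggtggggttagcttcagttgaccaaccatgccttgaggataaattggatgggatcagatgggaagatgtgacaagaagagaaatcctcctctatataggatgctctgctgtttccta
Of the 24 list members with a promoter in the table, 6 held the element, in 6 of 40 promoters, against 3.62% of all 35116 promoters. A match is a description of these letters only.

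Histone genes showed the largest median difference of the lists. Most of the listed genes encode histones made during DNA replication, and their reads may be shared with close copies, which makes each value less certain. Whether the RNA was selected for poly(A) tails is not given in the sources used here. Of 11 tested members, 6 rose and 1 fell in HCT116, and 3 rose and 2 fell in SW480. The difference was called positive for 6 and negative for none, with a median response of 1.59 in HCT116 and 0.13 in SW480. H2AC6 had 25.7, 22.1 and 22.9 CPM with siBRD8-6 and 17.8, 17.7 and 17.4 CPM with siBRD8-36 in HCT116, against 3.71, 3.98 and 3.3 CPM with siControl. In SW480 H2AC6 had 125, 117 and 116 CPM with siBRD8-6 and 109, 110 and 104 CPM with siBRD8-36, against 73.4, 63.1 and 68.7 CPM with siControl. It rose in both lines without overlap, from a control level that was far lower in HCT116 (difference 1.75 ± 0.11, adjusted p = 5.6e-09). H2BC5 (1.58 ± 0.18) and H2BC12 (1.11 ± 0.16) likewise rose more in HCT116, H2AC18 (2.55 ± 0.26) and H2BC4 (2.26 ± 0.41) rose in HCT116 alone by the test, the H2BC4 call not holding in every alternative, and H1-2 was the reversed gene described above.

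The promoters of the reversed H1-2 and of H2AC6, which rose in both lines, are shown with the CCAAT box (CCAAT) and the TATA box (TATAAA), each searched on both strands, in capitals. H1-2 lies at chr6:26056421-26056720 on the minus strand and H2AC6 at chr6:26123922-26124221 on the plus strand (RefSeq, GRCh38.p14).
H1-2: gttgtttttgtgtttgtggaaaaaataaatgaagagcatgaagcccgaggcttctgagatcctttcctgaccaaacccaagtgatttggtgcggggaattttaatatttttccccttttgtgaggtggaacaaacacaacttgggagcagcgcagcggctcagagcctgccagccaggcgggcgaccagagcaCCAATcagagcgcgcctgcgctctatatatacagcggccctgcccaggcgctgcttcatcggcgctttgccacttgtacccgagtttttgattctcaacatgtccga
H2AC6: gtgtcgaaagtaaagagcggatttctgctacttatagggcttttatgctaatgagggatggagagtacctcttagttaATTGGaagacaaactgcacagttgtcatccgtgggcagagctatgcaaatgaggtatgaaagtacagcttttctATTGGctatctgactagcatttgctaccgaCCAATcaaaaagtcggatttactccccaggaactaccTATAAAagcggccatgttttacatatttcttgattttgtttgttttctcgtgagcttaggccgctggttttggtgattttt
The H1-2 window held 1 CCAAT box and no TATAAA, and the H2AC6 window held 3 CCAAT boxes and 1 TATA box. Of 11 list members with a promoter, 10 held CCAAT and 9 held TATAAA, in 12 and 11 of 13 promoters, against 34.6% and 11.5% of all promoters.

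p53 target genes that differed between lines all had the higher response in HCT116. p53 is a tumour suppressor that arrests the cell cycle and induces apoptosis after DNA damage. Of 29 tested members, 11 rose and 1 fell in HCT116, and 5 rose and 7 fell in SW480. The difference was called positive for 6 and negative for none, and the median difference was 0.54. CDKN1A, the cyclin-dependent kinase inhibitor p21, had 349, 392 and 371 CPM with siBRD8-6 and 987, 944 and 1090 CPM with siBRD8-36 in HCT116, against 238, 284 and 240 CPM with siControl. In SW480 CDKN1A had 105, 103 and 109 CPM with siBRD8-6 and 155, 146 and 147 CPM with siBRD8-36, against 141, 139 and 141 CPM with siControl. Depletion raised it in HCT116 with both siRNAs, and in SW480 the siRNAs lay on either side of control (difference 1.43 ± 0.085, adjusted p = 3.26e-07). PLK2, a polo-like kinase, had 290 to 374 CPM in the depleted and 75.4 to 82.2 CPM in the control libraries of HCT116, and 50.3 to 55.7 CPM and 41.1 to 44.6 CPM in SW480. It rose in both lines without overlap and more in HCT116 (difference 1.74 ± 0.079, adjusted p = 3e-11). AEN, a p53-induced nuclease, differed by 1.06 ± 0.079 (adjusted p = 5.7e-08). MDM2, the ubiquitin ligase of p53, differed by 1.09 ± 0.12 (adjusted p = 0.00353), a call that ended in both TPM fits and without SW480 siControl replicate 3.

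Cholesterol synthesis genes rose in 11 of 24 cases in HCT116 with none lower, and 4 rose and 5 fell in SW480. Differences were positive for 9 and negative for 1, with a median difference of 0.52. By siRNA the list's medians were 0.15 (siBRD8-6) and 0.96 (siBRD8-36) in HCT116, and −0.19 and 0.16 in SW480. MSMO1, a sterol demethylating oxidase, had 84.8, 82 and 83.3 CPM with siBRD8-6 and 182, 169 and 169 CPM with siBRD8-36 in HCT116, against 56.4, 58.5 and 53.3 CPM with siControl. In SW480 MSMO1 had 148, 136 and 122 CPM with siBRD8-6 and 191, 212 and 201 CPM with siBRD8-36, against 210, 190 and 192 CPM with siControl. The siBRD8-36 libraries of SW480 overlapped control and the siBRD8-6 libraries lay below it, whereas both siRNAs lay above control in HCT116 (difference 1.36 ± 0.085, adjusted p = 3.06e-08). FDFT1, squalene synthase, had opposite siRNA responses in HCT116 (−0.35 and 1.40) and no rise in SW480 (−1.08 and −0.03), so that it differed by 1.08 ± 0.085 (adjusted p = 1.49e-05) without a call in either line. TM7SF2, a sterol reductase, was the member with a negative difference (−0.97 ± 0.11, adjusted p = 0.0031).

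WNT target genes rose in part in both lines. Of 23 tested members, 6 rose and 2 fell in HCT116, and 14 rose and none fell in SW480. Some members were absent from HCT116 and could be called only in SW480. APCDD1 and ASCL2 had 0 CPM in all HCT116 groups, and LEF1 had at most 0.02 CPM in group means. Their SW480 group means were 177 to 862, 22.1 to 61.7 and 41.2 to 67.4 CPM. The counts and the median difference of the list include such members. Negative differences were called for 6 members and a positive one for 1. The median difference was −0.12, against 0.02 over all genes, and −0.54 with uncentred TPM, against −0.21 over all genes. It was −0.06 without HCT116 siBRD8-6 replicate 2 and −0.23 without SW480 siControl replicate 3. NOTUM, a secreted enzyme that inactivates WNT ligands, had 9.64, 9.79 and 10.1 CPM with siBRD8-6 and 27.1, 26.9 and 27 CPM with siBRD8-36 in HCT116, against 18, 17.6 and 17 CPM with siControl. In SW480 NOTUM had 86.9, 97 and 95.1 CPM with siBRD8-6 and 58.2, 57.1 and 59.9 CPM with siBRD8-36, against 28, 24.6 and 28.9 CPM with siControl. The siRNAs lay on opposite sides of control in HCT116 and both lay above it in SW480 (difference −1.55 ± 0.093, adjusted p = 0.00232). RNF43, a ubiquitin ligase that removes WNT receptors, had 99.5 to 137 CPM in the depleted and 101 to 135 CPM in the control libraries of HCT116, and 76 to 118 CPM and 38 to 44.6 CPM in SW480. The HCT116 groups overlapped and the SW480 groups did not (difference −1.23 ± 0.11, adjusted p = 9.71e-07). NKD1, an antagonist of Dishevelled, stood at 0.07 ± 0.079 in HCT116 and rose in SW480 by 1.14 ± 0.071 (difference −1.06 ± 0.1, adjusted p = 0.00424). AXIN2, a scaffold of the complex that degrades beta-catenin, rose in both lines (1.38 and 0.96), and its siRNA differences had opposite signs (−0.41 with siBRD8-6, positive with siBRD8-36). DKK1, a secreted WNT inhibitor, was the member with a positive difference (0.80 ± 0.12, adjusted p = 0.000401), a call that did not hold in every alternative.

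Genes of ERK signalling and the AP-1 factors differed in both directions. Of 20 tested members, 11 fell and 1 rose in HCT116 and 7 fell and 1 rose in SW480, with 8 negative and 5 positive differences called. DUSP6, the phosphatase of ERK, had 77.6, 72.5 and 68.2 CPM with siBRD8-6 and 120, 117 and 121 CPM with siBRD8-36 in HCT116, against 263, 253 and 275 CPM with siControl. In SW480 DUSP6 had 185, 187 and 192 CPM with siBRD8-6 and 183, 180 and 197 CPM with siBRD8-36, against 183, 178 and 173 CPM with siControl. It fell in HCT116 and its SW480 groups lay within a narrow range of each other (difference −1.58 ± 0.071, adjusted p = 6.42e-10). The feedback inhibitor gene SPRY4 (−1.05 ± 0.072) and the ETS factor gene ETV5 (−1.03 ± 0.078) also had negative differences. PHLDA1 was reversed, lower in HCT116 and higher in SW480 (difference −0.94 ± 0.063, adjusted p = 1.79e-08), and JUN, an AP-1 subunit, was reversed the other way (0.78 ± 0.1, adjusted p = 0.000147). The EGF receptor ligand genes had positive differences and lower responses in SW480. Among them, AREG had 252 to 475 CPM in the depleted and 546 to 668 CPM in the control libraries of HCT116, and 2.19 to 8.16 CPM and 15.6 to 17.5 CPM in SW480. Neither line showed overlap (AREG difference 1.24 ± 0.14, adjusted p = 0.000447), and the AREG call ended with uncentred TPM. EREG (1.17 ± 0.15) and HBEGF (0.88 ± 0.14) had differences of the same sign. The EREG call ended in both TPM fits and without SW480 siControl replicate 3, and neither the HBEGF nor the JUN call held in every alternative.

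**Figure D4:**
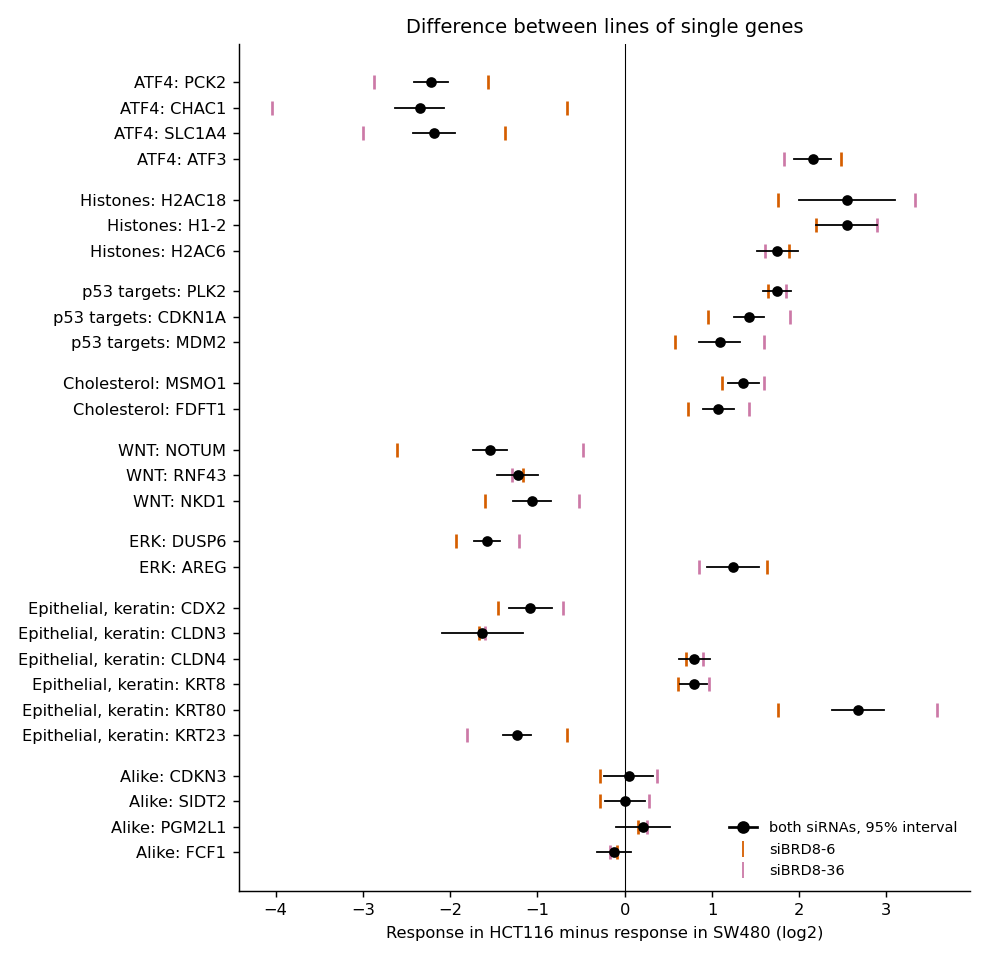
Difference between lines (log2 response in HCT116 minus that in SW480) of 23 list members and 4 alike genes. Black points and bars give the mean of both siRNAs with its 95% interval, and ticks the single siRNAs. CHAC1 and NOTUM show ticks far apart on the same side of 0, and the alike genes lie around 0.

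Ribosome biogenesis genes rose in 18 of 29 cases in HCT116 and fell in none, and 4 rose and 4 fell in SW480. The difference was called positive for 15 and negative for none, and the median difference was 0.35, or 0.09 with uncentred TPM, where that of all genes was −0.21. GNL3, a nucleolar GTPase, was at 0.07 ± 0.049 in HCT116 and fell in SW480 by 0.62 ± 0.051 (difference 0.69 ± 0.071, adjusted p = 7.81e-06). NPM1, the nucleolar chaperone nucleophosmin, was reversed, at 0.26 ± 0.058 in HCT116 and −0.37 ± 0.057 in SW480 (difference 0.63 ± 0.081, adjusted p = 8.04e-05), and has pseudogenes that could share its reads. Both calls ended with uncentred TPM. The share of ribosomal protein counts given above, which was lower with BRD8 siRNAs in SW480, moved in the same libraries, and its part in these differences was not tested.

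Endoplasmic reticulum chaperone genes fell in 2 of 17 cases in HCT116 and in 9 in SW480, with none higher in either line, and 2 differences were called, both positive. The list's share of differing genes was thus near the 12.3% of all genes. Over all genes 9.5% fell in HCT116 and 11.2% in SW480. HSPA5, the chaperone BiP, had 1640 to 2010 CPM in the depleted and 1690 to 1830 CPM in the control libraries of HCT116, and 988 to 1570 CPM and 2250 to 2330 CPM in SW480. It overlapped control in HCT116 and fell in SW480 (difference 0.91 ± 0.06, adjusted p = 2.3e-05), a call that ended with uncentred TPM. XBP1, a transcription factor of the unfolded protein response, was the other (0.39 ± 0.076, adjusted p = 0.0136), and its call ended in both TPM fits, with no filter and without SW480 siControl replicate 3. XBP1 fell in both lines and also met the definition of moving alike.

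Epithelial genes rose in 9 of 22 cases and fell in 3 in each line, with 4 positive and 4 negative differences. The median difference was −0.29 and turned to 0.03 with median-centred TPM and to 0.11 with a filter of at least 1 CPM in 3 libraries of each line. CDX2, an intestinal transcription factor, had 16.4 to 20 CPM in the depleted and 15.5 to 17.5 CPM in the control libraries of HCT116, and 29.2 to 52.3 CPM and 16 to 18.6 CPM in SW480. It overlapped control in HCT116 and rose in SW480 (difference −1.08 ± 0.12, adjusted p = 0.000768). The claudin genes, which encode proteins of tight junctions, went apart. CLDN3 fell in HCT116 (−1.55 ± 0.14) with 0.09 ± 0.17 in SW480 (difference −1.63 ± 0.22, adjusted p = 0.000165), and CLDN4 rose in HCT116 (0.75 ± 0.062) with −0.05 ± 0.061 in SW480 (difference 0.80 ± 0.086, adjusted p = 2.37e-05). KRT8, a keratin of simple epithelia with many pseudogenes, rose more in HCT116 (1.21 ± 0.056) than in SW480 (0.42 ± 0.054). Of the other keratins, 2 of 10 differed, against 12.3% of all genes. These were KRT80 described above and KRT23, which fell in HCT116 (−0.70 ± 0.061) and whose siRNAs gave 0.04 and 1.03 in SW480 (difference −1.23 ± 0.077, adjusted p = 1.47e-05). Some keratins were near 0 in HCT116, where a change could hardly be called. KRT5 and KRT81 had 0.0204 and 0.681 CPM there with siControl, against 622 and 384 CPM in SW480. The keratin medians include such members.

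Mesenchymal genes had 7 of 17 members higher and 1 lower in HCT116 and 2 higher and 2 lower in SW480. The difference was called for 3, positive for CCN1 and SNAI2, a transcription factor of epithelial-mesenchymal transition, and negative for SPARC, a matrix glycoprotein. The SNAI2 call did not hold in every alternative. SNAI2 had at most 0.681 CPM in HCT116 group means. It was therefore not tested with the filter of at least 1 CPM in 3 libraries of each line, which counted as not called. SNAI2 and SPARC had few counts in HCT116, with SPARC at 0.16 to 0.79 CPM in the depleted and 1.34 to 2.29 CPM in the control libraries of HCT116. The summed fibroblast markers moved in these libraries too, at 30.2 to 37.1 CPM with siBRD8-6 and 58.4 to 72.4 CPM with siBRD8-36 in HCT116, against 18.9 to 21.5 CPM with siControl. In SW480 they stood at 14.3 to 17.2 and 5.33 to 6.51 CPM with the same siRNAs, against 8.16 to 8.81 CPM with siControl, with DCN or LUM at 0 in every group and 2 of 7 markers tested. COL1A1 made up most of that sum in HCT116, at 28.8 to 70.6 CPM in the depleted and 18.1 to 20.9 CPM in the control libraries.

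Many genes of the cell cycle and DNA repair were called lower in both lines. At the replication fork, 20 of 37 genes fell in HCT116 and 24 in SW480 with none higher, 13 met the definition of moving alike and 1, POLA1, differed. Of 26 homologous recombination and Fanconi genes, 16 fell in HCT116, 17 fell and 1 rose in SW480, 10 moved alike and 1, the helicase gene BRIP1, differed (−0.81 ± 0.16, adjusted p = 0.00894). Of 35 G2/M genes, 20 fell in HCT116 and 32 in SW480, 14 moved alike, and 6 had a positive and 1 a negative difference. The G2/M median was −0.89 in HCT116 and −1.15 in SW480, and its median difference of 0.21 turned to −0.13 with uncentred TPM. The siRNAs parted as well, since the G2/M medians were −0.30 (siBRD8-6) and −1.55 (siBRD8-36) in HCT116 and −0.79 and −1.51 in SW480.

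Among the 15 genes that license replication origins, 11 fell in HCT116 and 10 in SW480, and 4 positive and 3 negative differences were called. CDC6, the loader of the replicative helicase, fell in both lines and further in SW480 (difference 0.80 ± 0.084, adjusted p = 9.09e-06), whereas the helicase subunit MCM2 differed by −0.83 ± 0.083 (adjusted p = 0.0123). The MCM2 responses were −0.46 (siBRD8-6) and −3.30 (siBRD8-36) in HCT116, and −0.12 and −1.98 in SW480, where MCM2 was not called. The calls of CDC6 with uncentred TPM, of MCM2 and POLA1 with median-centred TPM and of BRIP1 in both TPM fits ended. CCNB2, cyclin B2, fell further in SW480 (difference 0.55 ± 0.084, adjusted p = 0.00113), a call that ended with uncentred TPM. Of 21 regulators of the G1/S transition, RBL2, a pocket protein related to the retinoblastoma protein, was reversed, lower in HCT116 (−0.43 ± 0.063) and higher in SW480 (0.45 ± 0.069), with a difference of −0.87 ± 0.094 (adjusted p = 4.31e-06). SKP2, a subunit of a ubiquitin ligase of cell cycle inhibitors, also differed (−0.49 ± 0.11, adjusted p = 0.00952), a call that ended with median-centred TPM.

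Of 18 subunits of the TIP60 complex, MORF4L2, a subunit with an MRG domain, differed (0.67 ± 0.065, adjusted p = 1.15e-05), and YEATS4 fell in both lines (−0.71 and −1.15). The median difference of the complex was 0.16 and turned to −0.22 with uncentred and −0.02 with median-centred TPM. Of 31 interferon-stimulated genes 1 differed, OAS3, an oligoadenylate synthetase, which fell in HCT116 (−1.11 ± 0.079) and whose siRNAs gave −0.31 and 0.84 in SW480 (difference −1.37 ± 0.14, adjusted p = 4.3e-05). Of 14 NF-kappaB genes 1 differed, the adhesion molecule gene ICAM1 (adjusted p = 0.0461), a call lost in 17 of the 31 alternatives. Of 25 hypoxia and glycolysis genes 5 had a positive difference, with NDRG1 at 0.77 ± 0.073 and LDHA, the lactate dehydrogenase subunit, reversed at 0.55 ± 0.071. Both calls ended with uncentred TPM, where the list's median difference of 0.19 turned to −0.13. Of 13 mRNAs encoded in the mitochondria, 3 had a positive difference, calls that each ended in 2 to 17 of the 31 alternatives, with a median response of 0.51 in HCT116 and −0.12 in SW480. The mitochondrial share of counts was 1.63 to 2.55% in the depleted and 1.57 to 1.66% in the control libraries of HCT116, and 2.29 to 2.82% and 2.69 to 2.80% in SW480.

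Of the 966 genes that moved alike, 77 changed at least 2-fold in both lines, 15 higher and 62 lower. CDKN3 (ENSG00000100526, chromosome 14, 54396849 to 54420218, plus strand), a phosphatase of cyclin-dependent kinases, had 7.18, 8.46 and 8.14 CPM with siBRD8-6 and 6.93, 8.18 and 8.34 CPM with siBRD8-36 in HCT116, against 28.2, 32.5 and 27.7 CPM with siControl. In SW480 CDKN3 had 30.2, 29.5 and 22.8 CPM with siBRD8-6 and 19.1, 17.1 and 14.8 CPM with siBRD8-36, against 85.2, 84.2 and 79.2 CPM with siControl. The groups did not overlap, and the responses were −1.90 ± 0.093 and −1.94 ± 0.087. Their difference was 0.04, with a 95% interval of −0.23 to 0.32.

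The CDKN3 promoter is shown with the CHR, a motif of late cell cycle genes searched as TTTGAA on both strands, in capitals (chr14:54396757-54397056, plus strand, RefSeq, GRCh38.p14).
CDKN3: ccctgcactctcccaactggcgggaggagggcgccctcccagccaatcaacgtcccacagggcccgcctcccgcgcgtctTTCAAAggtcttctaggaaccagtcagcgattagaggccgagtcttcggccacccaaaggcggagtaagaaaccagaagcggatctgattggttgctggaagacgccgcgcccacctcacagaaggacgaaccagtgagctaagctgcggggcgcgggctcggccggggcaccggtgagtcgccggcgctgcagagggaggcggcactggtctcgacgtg
Of 30 G2/M list members with a promoter, 21 held a CHR and 24 a CCAAT box, in 24 and 27 of 36 promoters, against 15.2% and 34.6% of all promoters.

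SIDT2, a lysosomal membrane protein implicated in RNA uptake, had 47.7, 45.9 and 42.1 CPM with siBRD8-6 and 65.9, 66.7 and 68 CPM with siBRD8-36 in HCT116, against 21.9, 21.5 and 25.1 CPM with siControl. In SW480 SIDT2 had 28.2, 30.8 and 34.2 CPM with siBRD8-6 and 27.5, 31.9 and 34.3 CPM with siBRD8-36, against 12.3, 13.9 and 12.6 CPM with siControl. It rose in both lines by 1.27 without overlap, with a 95% interval of the difference of −0.23 to 0.23. PGM2L1, an enzyme of glucose 1,6-bisphosphate synthesis, rose by 1.59 ± 0.092 in HCT116 and 1.39 ± 0.12 in SW480, more with siBRD8-36 (2.08 and 1.82) than with siBRD8-6 (1.11 and 0.96) in both. GOLT1B, a Golgi transport protein, fell in both lines, at −1.59 ± 0.084 and −1.89 ± 0.081 (interval 0.05 to 0.55).

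Some genes moved alike between lines but not between siRNAs. FCF1, a protein of small ribosomal subunit assembly, had 53.1, 47.8 and 50.9 CPM with siBRD8-6 and 10.5, 11.4 and 10.9 CPM with siBRD8-36 in HCT116, against 69.2, 82.1 and 71.3 CPM with siControl. In SW480 FCF1 had 53.5, 57.5 and 52.5 CPM with siBRD8-6 and 11.7, 12.9 and 12.8 CPM with siBRD8-36, against 77.3, 75.7 and 71.8 CPM with siControl. The libraries of each siRNA stood at nearly the same level in both lines, and siBRD8-36 lowered the gene far more than siBRD8-6 (−2.76 and −2.59, against −0.55 and −0.46). COQ2, an enzyme of coenzyme Q synthesis, showed the same order, with responses of −2.51 and −2.88 to siBRD8-36 and −0.47 and −0.46 to siBRD8-6 in HCT116 and SW480. BMP4, a secreted growth factor, rose by 1.48 ± 0.057 in HCT116 and 1.39 ± 0.064 in SW480. Its siRNAs, however, parted in SW480 (2.07 with siBRD8-6 and 0.71 with siBRD8-36) and not in HCT116 (1.39 and 1.56), so that only the mean of both was alike.

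**Figure D5:**
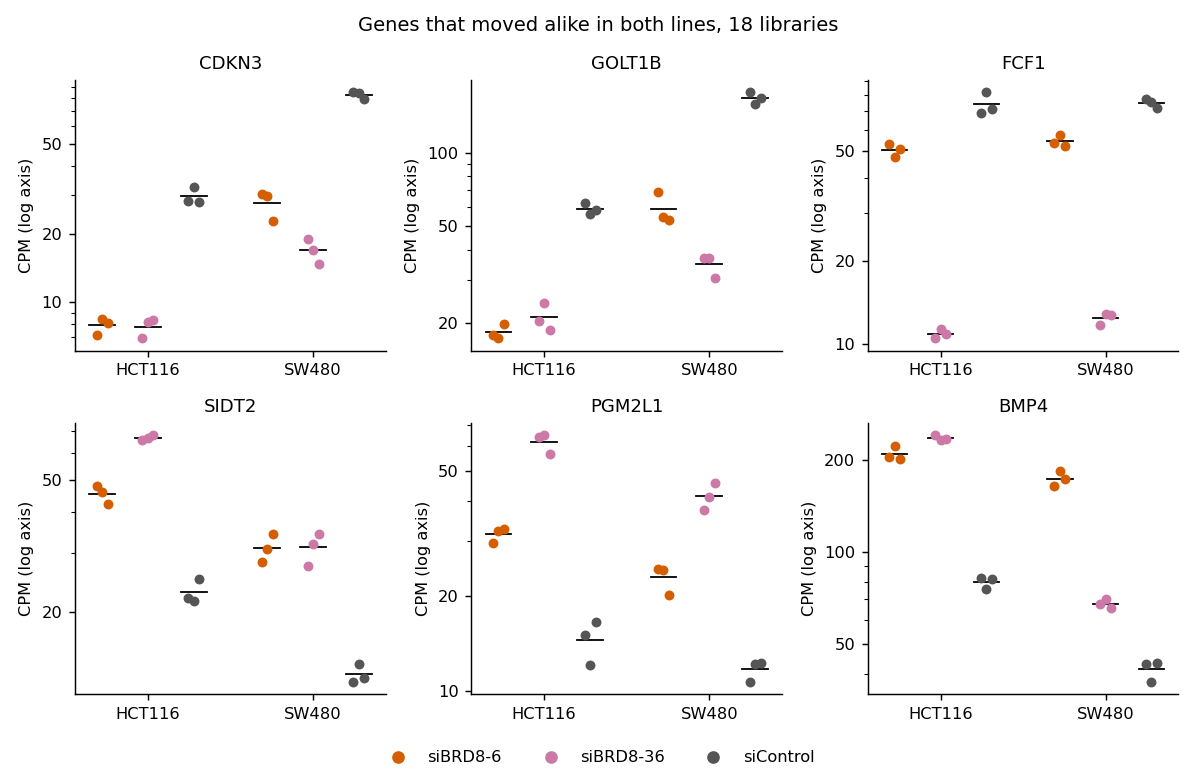
CPM (log axis) of 6 genes that moved alike by the mean of both siRNAs, with siBRD8-6, siBRD8-36 and siControl from left to right in HCT116 and then SW480. Points are libraries and bars are means of 3. CDKN3, GOLT1B and FCF1 lie below control and SIDT2, PGM2L1 and BMP4 above control in the depleted libraries of both lines.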

How the data were processed

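Strand-specific libraries from 100 ng of total RNA gave single reads of 60 bases, per the labels' protocols. The submitters' processing notes name Trimmomatic 0.33, STAR 2.7.3a, RSEM 1.3.3 and the hg38 build. Neither the annotation release nor the strand setting is given in the sources used here. For 60617 genes per library, the files hold an expected count deposited by the authors, an estimate that shares reads between the genes they match and need not be whole. They also hold the authors' deposited TPM, a length-corrected value per M transcripts. GENCODE release 29 held 58444 of the identifiers and gave types and coordinates, and 34 symbols belonged to several identifiers.

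Expected counts were rounded and fitted in edgeR 4.0.16 (R 4.3.3) by its robust quasi-likelihood test, with TMM scaling and its expression filter by group, over 18 libraries and 6 group means, with Benjamini-Hochberg adjustment over all genes tested. SEs were derived from each log2 change and its F statistic, and intervals from those SEs. The chi-square per gene between the 18 replicate pairs lay between 1.47 and 21.3, over genes with at least 20 counts. This is more spread than counting noise alone gives, but it cannot tell separate cultures from separate library preparations. All libraries were treated as separate samples. In simulated counts of 16543 genes with known interactions, 88% of 2-fold and 42% of 1.5-fold differences were called, with 1 false call, and 92.5% of genes made alike at 2-fold were called alike. The simulation changed only a sample of genes with a mean count of at least 50 in each line. It let both siRNAs act alike and held no scaling shift, so it gives no false call rate for these data.

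Gene lists and members were chosen with earlier results of these data known. Named genes were BRD8, KAT5 and, among protein-coding genes with a mean count of at least 50 in each line, those with the largest differences, the largest reversed and alike responses, and up to 3 of each list. Members beyond that rule, such as ASNS, PSAT1, AEN, JUN, SPARC and histone genes, were named after their values were seen, as were genes to describe in full, drawn mostly from calls that held in every alternative. Alternatives were other scalings, filters, call rules, DESeq2 1.42.0, limma 3.58.1 on log2(TPM + 1), thinned depth and leaving out each library. The values of 1 list member are not reported here.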

Additional observations from a re-analysis of the deposited data

Results flagged for a closer look

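The response of 48 genes described above differed between HCT116 and SW480 by the test of the difference itself, with both siRNAs. Each value is the log2 response in HCT116 minus that in SW480. The positive differences included KRT80 (2.67), WNT9A (2.67), H2AC18 (2.55), H1-2 (2.54), MISP (2.40), C1orf116 (2.24), HKDC1 (2.22), ATF3 (2.15) and CCN1 (1.91). Positive as well were H2AC6 (1.75), ANXA1 (1.74), ARRDC3 (1.74), PLK2 (1.74), CDKN1A (1.43), MSMO1 (1.36), AREG (1.24), MDM2 (1.09) and FDFT1 (1.08). The smaller positive differences were HSPA5 (0.91), CDC6 (0.80), CLDN4 (0.80), KRT8 (0.79), GNL3 (0.69), MORF4L2 (0.67), NPM1 (0.63) and CCNB2 (0.55). The negative differences included CHAC1 (−2.35), PCK2 (−2.22), SLC1A4 (−2.18), PLEKHB1 (−2.11), MRC2 (−2.10), NIBAN1 (−1.80), TNFRSF6B (−1.79) and NES (−1.78). Negative as well were PALM (−1.75), CLDN3 (−1.63), DUSP6 (−1.58), NOTUM (−1.55), LRIG1 (−1.54), SLC5A3 (−1.52), OAS3 (−1.37) and KRT23 (−1.23). The smaller negative differences were RNF43 (−1.23), CDX2 (−1.08), NKD1 (−1.06), RBL2 (−0.87), MCM2 (−0.83) and BRIP1 (−0.81). No explanation was tested for them.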

How the results depend on the processing

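BRD8's difference between lines lay between −0.467 and −0.296 when each library in turn was left out and was called with the mean of both siRNAs in place of each (−0.36) and with siBRD8-36 alone (−0.508). Leaving out each library gave 1624 to 2662 differing genes, 527 to 1558 positive, 700 to 1134 negative, 94 to 187 reversed and 783 to 969 alike, with 3253 to 3954 called in HCT116 and 3074 to 4169 in SW480. Most of the highest counts came without HCT116 siControl replicate 2, and 1134 negative with 527 positive came without SW480 siControl replicate 3. With limma on log2(TPM + 1) there were 210 positive and 1410 negative differences, 74 reversed and 515 alike genes and 2002 called in HCT116. With its median-centred form there were 1064 differing genes (526 positive, 538 negative), 42 reversed, 431 alike, 1995 called in HCT116 and 2488 in SW480. Asking for the mean of both siRNAs gave 5507 differing (3007 and 2500), 892 reversed, 2752 alike, 8367 and 8128 called. The same counts were 5658 (3142 and 2516), 853, 2562, 9049 and 8334 with siBRD8-36 alone and 5041 (2615 and 2426), 845, 2071, 7556 and 7485 with siBRD8-6 alone. All 30 libraries gave 1591 negative differences, no filter on low counts 607 positive and 1492 negative, and the narrower margin 348 alike genes. At an unadjusted p under 0.05 for both siRNAs 3595 genes differed. Thinning HCT116 to the SW480 depth gave 1796 differing genes, so depth moved this count by less than 1.5 times. Same-numbered replicates correlated between −0.17 and 0.25 in their deviations from group means, over 0.1 in 6 of 18 pairs, and so were not treated as paired. With a replicate block 2145 genes differed, 140 were reversed and 980 alike, and BRD8 stood at −0.361. Differences of genes named in the text whose call ended under an alternative are marked beside their values. The causes of these changes were not tested.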
